A study of Mus musculus with 5 samples.

Results

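Desmosomes are spot-like junctions that join epithelial cells and anchor their intermediate filaments. Cadherins of the desmoglein and desmocollin families bind across the gap between cells, armadillo proteins (plakoglobin and the plakophilins) hold their tails, and desmoplakin ties the plaque to keratin filaments. β-catenin, the product of Ctnnb1, is an armadillo relative of plakoglobin that serves the neighbouring adherens junction and also carries Wnt signals. The 10 genes described here were given as a list of symbols and comprise the cadherins Dsg2 and Dsc2, the plakophilins Pkp1, Pkp2, Pkp3 and Pkp4, the plakins Dsp, Ppl and Evpl, and the membrane protein gene Perp. All 10 had an entry in at least 4 of the 5 libraries, among 17923 genes listed in any of them, and all 10 passed the filter on low counts that left 13240 genes for testing. Dsg2 and Dsc2 passed it through libraries labelled BVE-Ctnnb1null only, 2 of the 10 genes, so a higher level there was built into their passing.

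The libraries were made from total RNA of thyroid tumor cell lines of mice in which BrafV600E drives papillary thyroid cancer, and all groups shared this oncogene. The 2 BVE-Ctnnb1wt libraries kept Ctnnb1 and carry 1 line name and passage 20, and differ in that wt 1 was labelled as grown without, and wt 2 with, TSH (thyrotropin, the hormone that stimulates thyroid cells). The 3 BVE-Ctnnb1null libraries, labelled as carrying a deletion of Ctnnb1, came from 3 line names at passage 8 (null 1, without TSH), passage 11 (null 2) and passage 7 (null 3), the last pair with no TSH label. The protocol text instead gives about 25 passages for wt and 20 for null cells. What drives the deletion and the ages of the mice are not given in the sources used here. Genotype, line and passage cannot be told apart in this design, and because the wt libraries share a line, tests measure the spread between these libraries. The depth, as the total of estimated counts, was 30432737 for wt 1, 30713079 for wt 2, 29929677 for null 1, 29360002 for null 2 and 29415980 for null 3. Levels are given as FPKM, which is scaled to transcript length and library total and so allows different genes to be compared. The lowest FPKM listed was 0.01, and a gene below that is called not listed.

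Ctnnb1 itself had an FPKM of 59.29 and 73.75 in wt 1 and 2 and of 124.58, 196.26 and 117.82 in null 1, 2 and 3. The RNA level of the targeted gene therefore goes against the labels, although a transcript total does not separate deleted exons from the rest. Its log2 fold change was 0.55 (standard error, SE, 0.44, adjusted p = 0.517, edgeR quasi-likelihood, Benjamini-Hochberg). Since the group names rest on the labels alone, every direction below is that of the libraries labelled BVE-Ctnnb1null (null libraries) against those labelled BVE-Ctnnb1wt (wt libraries). The labelled cell type, thyroid epithelium, was checked with markers. Of the follicular markers, Tg, Tshr and Foxe1 stayed below an FPKM of 1 in every library, while Nkx2-1 was at 9.21 and 15.02 in wt 1 and 2 and at 9.26, 34.83 and 0.26 in the null libraries. Pax8 was at 0.40 and 0.17 in wt 1 and 2 and at 18.15, 12.78 and 2.56 in the null libraries. Slc5a5, the iodide transporter gene, was at 1.03 and 0.36 in wt 1 and 2 and at 6.48, 0.05 and 0.14 in the null libraries. Hhex was at 3.71 and 4.14 in wt 1 and 2 and at 1.08, 20.24 and 1.38 in the null libraries, so the follicular markers did not share an order of libraries.

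The summed level of the 10 genes was lowest in the wt libraries and differed widely among the null libraries. The summed FPKM of the 10 genes was 18.43 and 21.52 in wt 1 and 2, 301.92 in null 1, 47.17 in null 2 and 85.96 in null 3. Null 1 thus stood apart from all other libraries, and it had the highest FPKM of the 5 libraries for 8 of the 10 genes, beside 28.0% of all genes tested. For 6 of the 10 it exceeded both other null libraries by at least 2 on log2(FPKM + 0.1), beside 4.68%. Dsg2 is in both counts and Dsc2 in the first, and these genes passed the count filter through the null libraries only. All 10 genes had an FPKM of at least 1 in null 1, compared with 4 and 5 in wt 1 and 2, 5 in null 2 and 7 in null 3. In bulk RNA, fewer cells of a type and less RNA per cell cannot be told apart.

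**Figure D1:**
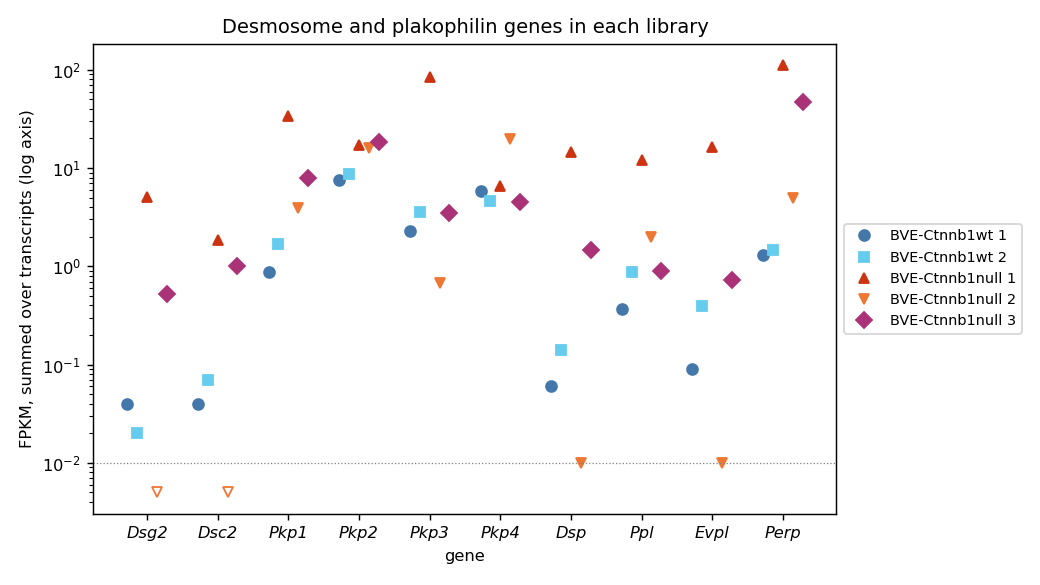
FPKM of the 10 genes (log axis) in each of the 5 libraries, with a marker per library. Hollow markers stand for genes not listed in that library and lie under the dotted line at an FPKM of 0.01. Null 1 lies highest for all genes except Pkp2 and Pkp4.

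The desmosomal cadherins form the adhesive core. Dsg2, the desmoglein of simple epithelia, had an FPKM of 0.04 in wt 1 and 0.02 in wt 2, 5.04 in null 1 and 0.52 in null 3, and was not listed in null 2. The counts behind these values were 7 and 4 in wt 1 and 2 and 878, 0 and 89 in null 1, 2 and 3. Dsg2 was thus at the edge of detection in 3 libraries, and the groups overlapped because null 2 lay below both wt libraries. Its partner Dsc2, a desmocollin of simple epithelia, had an FPKM of 0.04 and 0.07 in wt 1 and 2, 1.85 in null 1 and 1.00 in null 3, with no entry in null 2. The same libraries were high and low for both cadherins. In proportion, however, Dsc2 stood at 0.367 times the FPKM of Dsg2 in null 1 and at 1.92 times in null 3. For Dsg2 the log2 fold change was 5.42 (SE 2.60, adjusted p = 0.309, edgeR quasi-likelihood, Benjamini-Hochberg). For Dsc2 it was 3.55 (SE 2.13, adjusted p = 0.399, edgeR). Neither difference passed an adjusted p of 0.05 in this fit.

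Dsp encodes desmoplakin, the obligate link between the plaque and keratin filaments. Its FPKM was 0.06 and 0.14 in wt 1 and 2, 14.47 in null 1, 0.01 in null 2 and 1.48 in null 3. Null 2 held 2 counts of Dsp, against 19 and 41 in wt 1 and 2, 4229 in null 1 and 425 in null 3. The null libraries therefore lay on both sides of the wt libraries. Dsp ranked above 66.3% of the genes tested in null 1 and above 24.2% in null 3, but above 6.22%, 11.9% and 2.07% in wt 1 and 2 and null 2. Dsg2 stood at 0.348 times the FPKM of Dsp in null 1 and at 0.351 times in null 3, so that these libraries differed about as much in the one gene as in the other. In the fit, Dsp had a log2 fold change of 5.21 (SE 2.49, adjusted p = 0.306, edgeR quasi-likelihood, Benjamini-Hochberg), and 2.16 without null 1.

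The 250 bases before the start of Dsp are shown because Dsp varied more between libraries than Pkp4, the other member with a promoter window, with capitals marking matches to the GC box (GGGCGG, or CCGCCC on the other strand), a motif of SP and KLF factors. The sequence is from RefSeq, build GRCm38.p6, plus strand, chr13:38151044-38151293. The shorter stretch spans the start (chr13:38151289-38151313), with the E2 box (CAGGTG, or CACCTG on the other strand) in capitals, a motif that SNAI and ZEB repressors bind.
Dsp, before the start: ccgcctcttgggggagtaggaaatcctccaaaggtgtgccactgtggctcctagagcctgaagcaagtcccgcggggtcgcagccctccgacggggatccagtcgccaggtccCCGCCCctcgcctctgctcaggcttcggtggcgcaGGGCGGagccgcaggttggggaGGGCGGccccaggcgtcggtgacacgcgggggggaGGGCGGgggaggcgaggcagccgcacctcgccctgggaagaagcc
Dsp, around the start: aagccgacCAGGTGtggcctgggcg
The E2 box of Dsp begins at base 254 of its 300 base window, just after the start. Over all 32851 windows of 300 bases, 20.2% held an E2 box and 35.7% a GC box on either strand. No match to the TCF/LEF letters CTTTGAT, the AP-1 letters TGANTCA, the grainyhead-like letters AACNGGTT, the CREB letters TGACGTCA, the p53 half-site pair or the TATA letters TATAAA was found in the windows of Dsp and Pkp4. Those letters were in 3.73%, 7.81%, 2.09%, 1.79%, 0.712% and 13.6% of all windows, and these matches are a description of letters, not of bound sites.

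The plakophilins stabilise the plaque and cluster the cadherins. Pkp1, best known from stratified epithelia, had an FPKM of 0.88 and 1.69 in wt 1 and 2 and of 33.83, 3.94 and 7.92 in null 1, 2 and 3. No null library reached down to either wt library. Pkp1 had a log2 fold change of 3.02 (SE 1.11, unadjusted p = 0.0308, adjusted p = 0.232, edgeR quasi-likelihood, Benjamini-Hochberg). Without null 1 it was 1.49. A two-sided exact permutation test over the libraries on log2(FPKM + 0.1) gave p = 0.2, where 0.1 is the smallest that this design allows.

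Pkp2, the plakophilin with the broadest distribution, was the most even of the 10 genes. Its FPKM was 7.59 and 8.69 in wt 1 and 2 and 17.08, 15.87 and 18.53 in null 1, 2 and 3, or 8.14 ± 0.778 (SD, n = 2) and 17.2 ± 1.33 (SD, n = 3). The groups did not overlap, and the exact permutation test gave p = 0.1, the smallest possible here. The size of the difference depended on scaling, with a log2 difference of 1.07 on log2(FPKM + 0.1) but a log2 fold change of 0.48 (SE 0.43, adjusted p = 0.561, edgeR quasi-likelihood, Benjamini-Hochberg) after TMM normalization, which rescales libraries by the trimmed mean of their gene ratios. The corresponding medians over all genes tested were 0.61 on log2(FPKM + 0.1), over 11888 genes, and 0.29 after TMM normalization. In CPM (counts scaled to library size, without length) after TMM normalization, Pkp2 stood at 26.5 and 34.7 in wt 1 and 2 and at 46.0, 37.9 and 44.5 in the null libraries.

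Pkp3, a plakophilin of most epithelia, had an FPKM of 2.29 and 3.56 in wt 1 and 2 and of 83.91, 0.67 and 3.49 in null 1, 2 and 3. Null 1 was far above all others, null 2 was below both wt libraries, and null 3 lay between the wt libraries. The log2 fold change of 2.82 (SE 1.89, adjusted p = 0.442, edgeR quasi-likelihood, Benjamini-Hochberg) became -1.20 without null 1. Pkp4 (p0071), which also occurs at adherens junctions and is nearer in the armadillo family to p120 catenin, ran the other way. Its FPKM was 5.78 and 4.60 in wt 1 and 2, 6.57 in null 1, 19.73 in null 2 and 4.46 in null 3. Null 2 was the highest library here, whereas for 5 of the other genes it was the lowest, beside 14.5% of all genes. The log2 fold change of Pkp4 was 0.39 (SE 0.69, adjusted p = 0.781, edgeR) and -0.52 without null 2.

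Pkp4 was the only member listed with more than 1 transcript. The transcript of 4642 bases took 52.8% and 12.2% of its FPKM in wt 1 and 2 and 56.8%, 37.9% and 72.9% in null 1, 2 and 3, and the transcript of 4513 bases took the rest. The split differed between the wt libraries as much as between the null libraries, and since transcripts of 1 gene share sequence, the estimated counts could have divided shared reads between them. Both RefSeq start windows of Pkp4 are shown for contrast with Dsp, from build GRCm38.p6, plus strand, at chr2:59160600-59160849 and chr2:59161619-59161868, with GC boxes and E2 boxes in capitals.
Pkp4, first window: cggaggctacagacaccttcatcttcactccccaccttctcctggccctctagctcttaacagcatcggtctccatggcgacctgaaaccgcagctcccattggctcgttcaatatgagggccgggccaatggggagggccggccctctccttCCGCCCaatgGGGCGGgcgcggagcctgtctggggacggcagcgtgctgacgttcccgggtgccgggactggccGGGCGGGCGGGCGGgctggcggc
Pkp4, second window: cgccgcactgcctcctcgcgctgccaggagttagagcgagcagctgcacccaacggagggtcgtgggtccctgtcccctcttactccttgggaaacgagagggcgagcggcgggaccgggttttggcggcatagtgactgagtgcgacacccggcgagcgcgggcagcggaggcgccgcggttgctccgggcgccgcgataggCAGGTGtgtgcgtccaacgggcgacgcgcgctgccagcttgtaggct
The first window holds overlapping GC boxes and no E2 box, and the second holds an E2 box and no GC box, so the letters of the E2 box occurred beside Dsp, which was at 0.14 FPKM or less in 3 libraries, and beside Pkp4, which was above 4 in all 5. Only these 2 of the 10 genes matched an entry of the promoter table.

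Together the plakophilins summed to an FPKM of 16.54 and 18.54 in wt 1 and 2 and of 141.39, 40.21 and 34.40 in null 1, 2 and 3. Their make-up differed between libraries. Pkp2 was the largest part in both wt libraries (45.9% and 46.9%) and in null 3 (53.9%). In null 1 Pkp3 took 59.3% and Pkp1 23.9%, and in null 2 Pkp4 took 49.1% and Pkp3 1.67%. The pair of wt libraries gave Pkp3 13.8% and 19.2%.

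**Figure D2:**
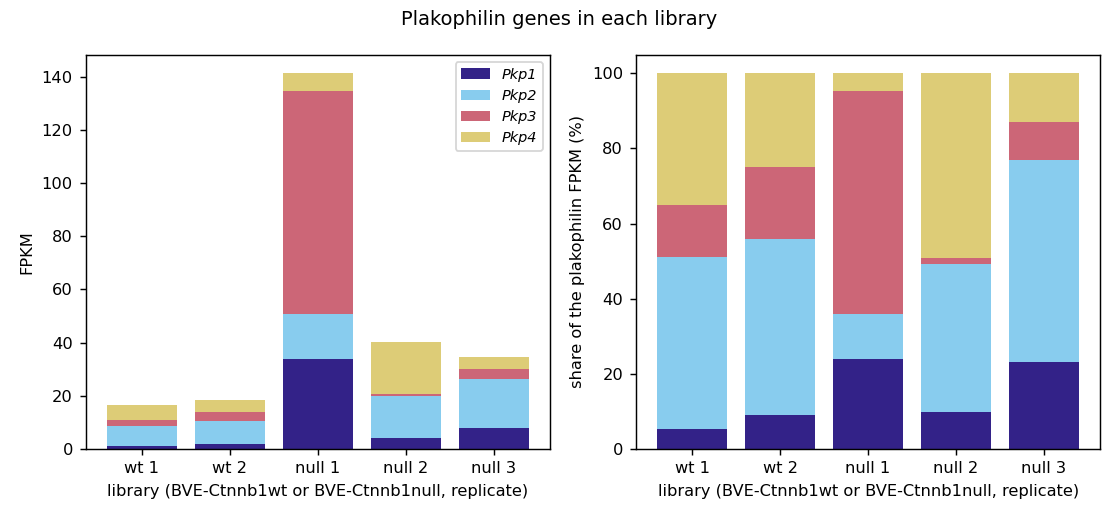
FPKM of Pkp1, Pkp2, Pkp3 and Pkp4 stacked per library (left) and the share each took of their summed FPKM in percent (right). Pkp3 makes up 59.3% in null 1 and 1.67% in null 2, and the wt libraries resemble each other.

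Ppl and Evpl encode periplakin and envoplakin, plakins that pair with each other and are known from the cornified envelope of squamous epithelia. Ppl had an FPKM of 0.37 and 0.88 in wt 1 and 2 and of 12.00, 1.99 and 0.89 in null 1, 2 and 3. Null 3 cleared wt 2 by 0.01 only, and in CPM after TMM normalization it lay between the wt libraries (4.67, against 2.85 and 7.71). Evpl had an FPKM of 0.09 and 0.39 in wt 1 and 2 and of 16.30, 0.01 and 0.72 in null 1, 2 and 3, with 2 counts in null 2. Evpl thus followed the pattern of Dsp, with null 2 at the bottom, whereas Ppl in null 2 was above both wt libraries. The ratio of Evpl to Ppl was 0.243 and 0.443 in wt 1 and 2 and 1.36, 0.00503 and 0.809 in null 1, 2 and 3. The log2 fold change was 2.43 (SE 1.27, adjusted p = 0.340, edgeR quasi-likelihood, Benjamini-Hochberg) for Ppl and 0.49 without null 1. For Evpl it was 4.03 (SE 2.46, adjusted p = 0.406, edgeR) and -0.14 without null 1.

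Perp, a tetraspan membrane protein gene that p53 and p63 activate and that is needed for desmosome assembly in squamous epithelia, had the lowest p of the 10. Its FPKM was 1.29 and 1.48 in wt 1 and 2 and 110.87, 4.95 and 46.95 in null 1, 2 and 3, or 1.39 ± 0.134 (SD, n = 2) and 54.3 ± 53.3 (SD, n = 3). The groups did not overlap, although the null libraries themselves spanned more than the distance from the lowest of them to the wt libraries. Perp had a log2 fold change of 4.76 (SE 1.36, unadjusted p = 0.0107, adjusted p = 0.192, edgeR quasi-likelihood, Benjamini-Hochberg), with a range from 3.53 to 5.21 when single libraries were left out. The exact permutation test on log2(FPKM + 0.1) gave p = 0.2. Trp53, the gene of p53, had an FPKM of 106.86 and 68.20 in wt 1 and 2 and of 134.54, 186.36 and 40.05 in the null libraries. Trp63, the gene of p63, was not listed in wt 1 and 2 and stood at 0.06, 0.18 and 4.42 in null 1, 2 and 3. A part of either in the level of Perp was not tested.

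Across the whole comparison, 0 of the 10 genes and 0% of all 13240 genes tested passed an adjusted p of 0.05 (edgeR quasi-likelihood, Benjamini-Hochberg). At an unadjusted p under 0.05, 2 of the 10 (Pkp1 and Perp) were higher and 0 were lower, beside 12.4% higher and 6.07% lower of all genes. All 10 fitted log2 fold changes were above 0, compared with 59.3% of all genes. Their median was 3.29 against 0.29 over all genes. Dsg2 and Dsc2 are part of both figures, although they passed the count filter through the null libraries only. With at least 10 counts required in every library, which left out Dsg2, Dsc2, Dsp and Evpl, 6 members were tested. Their median was 2.66 against 0.21 over all genes. DESeq2 called 4 of the 10 higher (Dsp, adjusted p = 0.0316; Dsg2, adjusted p = 0.0483; Pkp1, adjusted p = 0.0365; Perp, adjusted p = 0.000928), beside 8.41% of all genes, called 0 lower, beside 3.68%, and gave no adjusted p for Pkp3. Dsg2 is among those that passed the count filter through the null libraries only, and 3 calls remain without it. For the 4 genes called by DESeq2, the adjusted p in edgeR was 0.306, 0.309, 0.232 and 0.192, in the same order. With a replicate block in edgeR it was 0.940, 0.845, 0.491 and 0.431. The block leaves too few libraries to estimate the spread well, so those last values decide nothing about the calls. Without null 1, the tested members numbered 8, their median was 0.53, and DESeq2 kept 1 call, that of Perp (adjusted p = 0.00281), beside 11.8% of all genes called higher and 8.63% lower. limma on log2(FPKM + 0.1) called 0 of the 10 in either direction, beside 0.00841% of genes higher and 0.0421% lower. The wt libraries both lay under the lowest null library in FPKM for 4 of the 10 genes (Pkp1, Pkp2, Ppl and Perp), beside 35.9% of all genes, a share near the background. In CPM after TMM normalization the count was 3, without Ppl, beside 22.6%. With null 1 left out, the FPKM count stayed at 4, beside 48.9%.

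**Figure D3:**
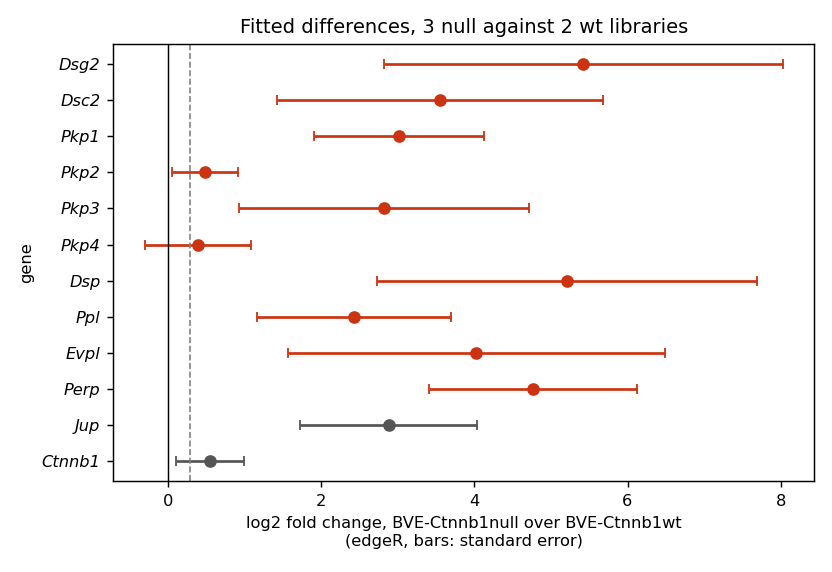
Log2 fold change of the null over the wt libraries with its standard error (bars) from edgeR, for the 10 genes (red) and for Jup and Ctnnb1 (grey). The dashed line is the median over all genes tested, 0.29. Pkp2 and Pkp4 lie close to it and the other 8 genes lie above it with wide bars.

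In the wt libraries the order of mean FPKM was Pkp2 (8.14 ± 0.778), Pkp4 (5.19 ± 0.834), Pkp3 (2.93 ± 0.898), Perp (1.39 ± 0.134), Pkp1 (1.29 ± 0.573), Ppl (0.625 ± 0.361), Evpl (0.240 ± 0.212), Dsp (0.10 ± 0.057), Dsc2 (0.055 ± 0.021) and Dsg2 (0.030 ± 0.014), each SD over n = 2. The first 3 did not overlap with their neighbours in the order, and from Perp downward each gene overlapped with the next. In the null libraries Perp came first with 54.3 ± 53.3 and Dsc2 last with 0.95 ± 0.926 (SD, n = 3), and every gene overlapped with the next in that order.

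Each null line was then set against the mean of the wt libraries on log2(FPKM + 0.1), which has no replicate check. In null 1 the median difference of the 10 genes was 4.75, against 0.55 over all genes, and 8 of the 10 were at least 2 above the wt mean, beside 15.6% of all genes. In null 2 the median was 0.29 against 0.62, with 0 of 10 at least 2 above, beside 16.4%. There 5 of the 10 genes (Dsg2, Dsc2, Dsp, Evpl and Pkp3) lay below both wt libraries, beside 25.0% of all genes. For Dsg2 and Dsc2, null 2 held 0 counts and each wt library 10 or fewer, so their place rests on few counts. In null 3 the median was 1.84 against 0.72, with 5 of 10 at least 2 above (Dsg2, Dsc2, Dsp, Pkp1 and Perp), beside 17.6%. Dsg2 and Dsc2, which passed the count filter through the null libraries only, are in the medians and in the counts of null 1 and null 3. Without them, Dsp, Pkp1 and Perp remain in the count of null 3. Those genes with Pkp3, Ppl and Evpl remain in the count of null 1. The cadherins, desmoplakin and envoplakin were therefore high in null 1, intermediate in null 3 and lowest in null 2. These 3 comparisons share the same wt libraries.

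**Figure D4:**
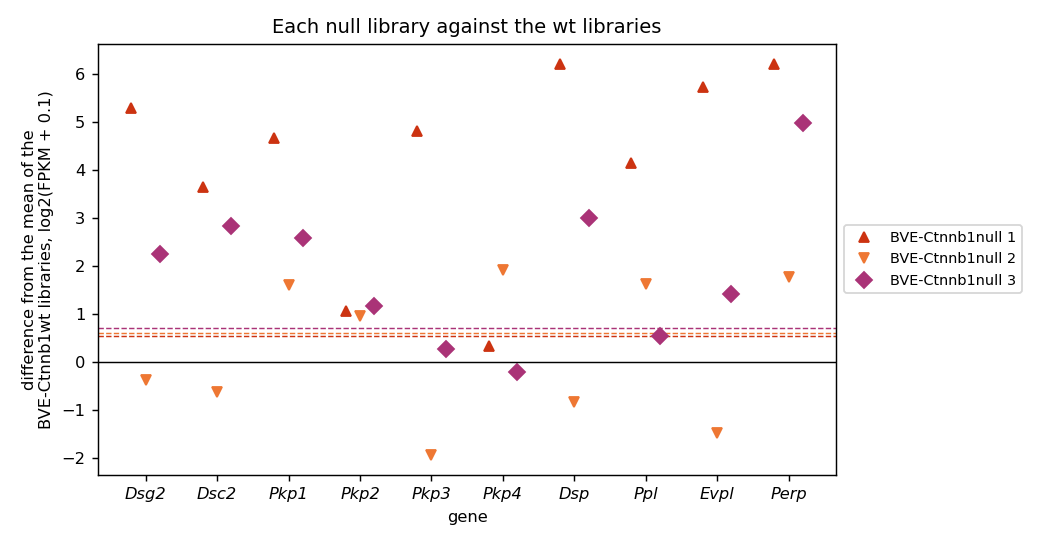
Difference of each null library from the mean of the wt libraries on log2(FPKM + 0.1) for the 10 genes. Dashed lines are the medians over all genes tested (0.55, 0.62 and 0.72 in null 1, 2 and 3). Null 1 exceeds its line for all genes except Pkp4, and null 2 is below 0 for Dsg2, Dsc2, Pkp3, Dsp and Evpl.

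The wt libraries share a line and passage and differ in the TSH label. In FPKM, 8 of the 10 genes were higher in wt 2 (with TSH), beside 35.5% of all genes, and the median log2 difference was 0.43 against -0.19 over all genes. Evpl and Ppl were higher in wt 2 by at least 1 on log2(FPKM + 0.1), 2 of the 10 beside 3.88% of all genes. Scaled by TMM, the ratio of wt 2 to wt 1 was 4.92 for Evpl (95% exact interval 2.92 to 8.73) and 2.70 for Ppl (2.05 to 3.61). Pkp1 was at 2.21 (1.77 to 2.78) and Pkp2 at 1.31 (1.18 to 1.46). The interval was above 1 for 6 of the 10 genes, beside 31.9% of all genes, and below 1 for 0, beside 32.8%. These intervals cover counting error only, and with a single library for each label TSH cannot be told apart from other variation between cultures.

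Jup, the gene of plakoglobin, is the armadillo partner of all desmosomal cadherins and binds their tails as β-catenin binds those of classical cadherins. Its FPKM was 4.28 and 6.71 in wt 1 and 2 and 138.72, 22.31 and 14.60 in null 1, 2 and 3, with all null libraries above both wt libraries. Jup had a log2 fold change of 2.88 (SE 1.15, unadjusted p = 0.0427, adjusted p = 0.256, edgeR quasi-likelihood, Benjamini-Hochberg). Relative to Ctnnb1, Jup stood at 0.0722 and 0.0910 in wt 1 and 2, 1.11 in null 1, and 0.114 and 0.124 in null 2 and null 3. Unlike Dsp, Jup kept an FPKM of 22.31 in null 2. Of the other desmosomal cadherins, Dsg3 and Dsg4 of stratified epithelia were at 0.06 or less everywhere, and Dsg1a, Dsg1b, Dsg1c, Dsc1 and Dsc3 were not analysed here.

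Other junction and filament genes were taken from lists, whose counts stand beside 12.4% of all genes higher and 6.07% lower at an unadjusted p under 0.05. None of the 8 adherens junction and armadillo genes tested passed an unadjusted p of 0.05 in edgeR, and their median log2 fold change was 0.60. Cdh1 (E-cadherin), the defining cadherin of adherens junctions in epithelia, had an FPKM of 1.94 and 1.62 in wt 1 and 2 and of 135.74 and 20.92 in null 1 and null 3, and was not listed in null 2. Cdh1 therefore had the same order of null libraries as Dsp. Cdh3 shared this order, at 36.08, 0.09 and 1.12 in null 1, 2 and 3. Its level in null 3 lay below wt 1 and 2 (6.98 and 6.23). Cdh2 had another order, at 4.61 and 3.89 in wt 1 and 2 and 9.66, 16.37 and 4.05 in the null libraries. Ctnnd1, the gene of p120 catenin, was less spread, at 36.91 and 82.90 in wt 1 and 2 and at 120.96, 95.30 and 81.12 in the null libraries. Of the 6 other plakin and linker genes, all had a log2 fold change above 0, beside 59.3% of all genes, and 2 (Dst and Macf1, giant plakins that bind actin and microtubules) had an unadjusted p under 0.05. Dst had an FPKM of 0.56 and 0.30 in wt 1 and 2 and of 4.15, 2.74 and 2.11 in the null libraries, with an adjusted p = 0.190 (edgeR). Of these 6, Pof1b passed the count filter through the null libraries only, and Eppk1 and Kazn also needed a null library to pass it. Dst and Macf1 lacked the gap in null 2 that Dsp and Evpl showed.

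Of the keratins that desmoplakin anchors, Krt19, Krt7 and Krt8 were also highest in null 1. Krt19 had an FPKM of 31.37 and 51.14 in wt 1 and 2 and of 2244.42, 17.77 and 93.71 in null 1, 2 and 3. Krt7 had 79.65 and 123.98 in wt 1 and 2 and 5130.95, 110.97 and 461.30 in the null libraries. Krt8 stayed abundant everywhere, with 634.39 and 1103.53 in wt 1 and 2 and 1797.70, 230.48 and 201.48 in the null libraries, and its lowest levels were in null 2 and null 3. Vim, the filament gene of mesenchymal cells, was at 1477.77 and 3405.92 in wt 1 and 2, 85.10 in null 1 and 2864.06 and 1401.23 in null 2 and null 3, so that its lowest level was in the library with the most Dsp. Of the 10 filament genes tested, 0 passed an unadjusted p of 0.05 in edgeR. Among the cornified envelope genes, Sprr1a had an FPKM of 6.39 and 16.76 in wt 1 and 2 and of 3690.80, 12.11 and 26.39 in the null libraries, and Tgm1, the cross-linking enzyme, had 0.08 and 0.05 in wt 1 and 2 and 24.68 and 4.39 in null 1 and null 3, with no entry in null 2. Of the 5 such genes tested, 2 (Tgm1 and Ivl) had an unadjusted p under 0.05 and were higher, and 1 (Sprr2a1) was lower. Tgm1 and Ivl passed the count filter through the null libraries only.

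Markers of epithelial and other cells also differed between the libraries, and their part in the result was not tested. At an unadjusted p under 0.05 in edgeR, 0 of 9 epithelial, 1 of 7 fibroblast, 1 of 5 thyroid and 1 of 3 squamous markers tested were higher, beside 12.4% of all genes. The fibroblast marker (Postn) and the squamous marker (Trp63) passed the count filter through the null libraries only. All 9 epithelial markers had their highest level in null 1. Their summed FPKM was 1098.23 and 1774.32 in wt 1 and 2 and 13375.0, 705.76 and 1420.23 in null 1, 2 and 3, with Krt7 the most abundant. Epcam and Cdh1, defining surface markers, were not listed in null 2. The 9 fibroblast markers summed to an FPKM of 289.96 and 255.00 in wt 1 and 2, 1.70 in null 1, 148.05 in null 2 and 1413.34 in null 3, with Col1a1 the most abundant. Dcn, Thy1 and Postn, at 84.66, 88.47 and 101.56 in null 3, were at 0.24 or less in every other library, and Lum was at 0.14 or less in all. Among the null libraries, null 3 thus had intermediate levels of Dsg2, Dsc2, Dsp and Evpl beside the highest summed fibroblast marker level. This did not hold for every desmosomal gene. Pkp4, Ppl and Jup were lowest in null 3 among the null libraries, and Pkp2 was highest there. The 7 squamous markers with an entry summed to 3.62 and 5.49 in wt 1 and 2 and 65.6, 3.53 and 24.2 in the null libraries, with Sfn the most abundant, while Krt6a, Dsg3 and Krt15 were at 0.25 or less in every library. Krt5 was at 0.06 and 0.01 in wt 1 and 2 and at 2.61, 0.03 and 0.06 in the null libraries, and Krt14 was at 1.13 and 2.08 in wt 1 and 2, at 2.45 and 0.39 in null 1 and null 2, and not listed in null 3.

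**Figure D5:**
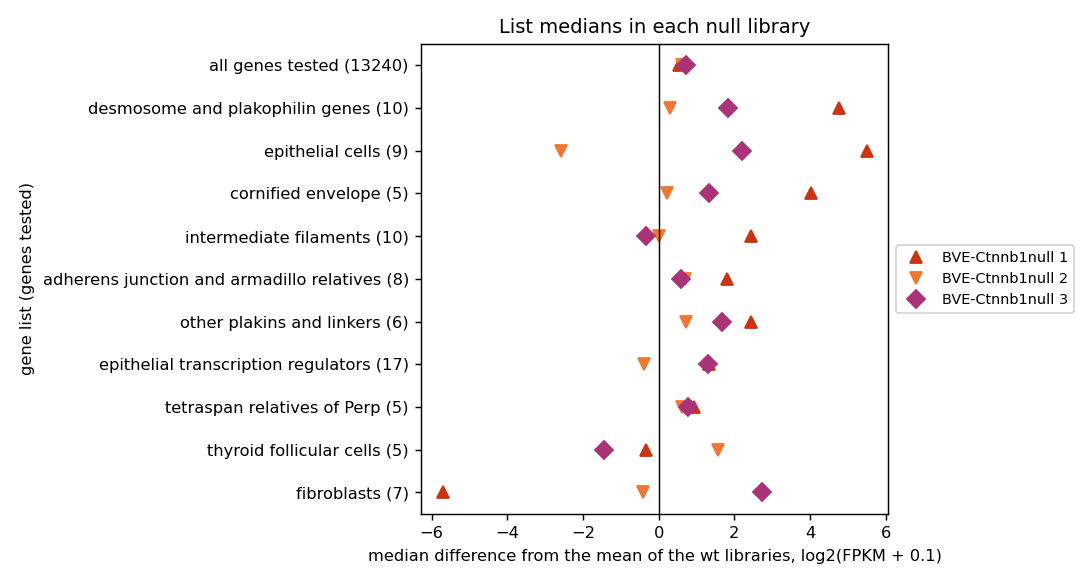
Median difference of each gene list from the mean of the wt libraries on log2(FPKM + 0.1), 1 marker per null library, with the number of genes tested in parentheses. In null 1 the desmosome and plakophilin genes (4.75) and the epithelial markers (5.51) are high and the fibroblast markers (-5.71) are low, while in null 2 the epithelial markers are at -2.59.

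Regulators of epithelial and mesenchymal identity also differed between libraries. Grhl2, a grainyhead-like activator of epithelial junction genes, had an FPKM of 0.01 and 0.10 in wt 1 and 2 and of 3.82, 0.01 and 0.85 in null 1, 2 and 3, the same order of null libraries as Dsp. Esrp1, an epithelial splicing factor, had 0.59 and 0.54 in wt 1 and 2 and 16.15, 0.01 and 4.31 in the null libraries. Elf3, Klf4, Ehf, Esrp2, Grhl3, Ovol1 and Ovol2 also had this order of null libraries, although Klf4 in null 2 (2.70) was above wt 1 and 2 (2.01 and 1.36). Klf5 had another order, at 8.98 and 4.45 in wt 1 and 2 and at 29.02, 14.76 and 5.28 in the null libraries. Grhl1 was highest in null 3, at 0.39 against 0.22 in null 1, and was not listed in null 2. Twist1, a mesenchymal factor, was at 32.51 and 36.12 in wt 1 and 2, 0.02 in null 1 and 30.36 and 65.00 in null 2 and null 3. Zeb1, a repressor that binds E2 boxes, was at 1.70 and 1.39 in wt 1 and 2. In null 1, 2 and 3 it was at 0.02, 8.09 and 5.36, lowest where Dsp was highest. In null 3, however, both Zeb1 and Dsp lay above wt 1 and 2. Zeb2 was at 0.26 and 0.11 in wt 1 and 2 and at 0.12, 2.04 and 1.15 in the null libraries, the same order of null libraries as Zeb1. Snai2 was at 0.22 and 0.03 in wt 1 and 2 and at 0.37, 1.70 and 5.56 in the null libraries. Snai1 was at 23.61 and 31.79 in wt 1 and 2 and at 9.54, 3.87 and 25.08 in the null libraries, lowest in null 2, where Dsp was lowest too. Grhl1, Grhl2, Grhl3, Esrp1, Esrp2, Klf4, Ehf, Ovol1, Ovol2, Zeb1 and Zeb2 were named after their values were seen. Of the 17 regulators tested, 2 (Trp63 and Snai2) had an unadjusted p under 0.05 in edgeR and were higher, beside 12.4% of all genes. Trp63 passed the count filter through the null libraries only, and Snai2 also needed a null library to pass it. A part of any regulator named here in the level of Dsp was not tested.

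For the 3 most abundant members, the genes with the most similar profile over the 5 libraries were sought by the root mean square difference of mean-centred log2(FPKM + 0.1), among genes with a mean FPKM of at least 1. Closest to Perp were Slc45a3 (0.257), Gas6 (0.263) and 1700016C15Rik (0.302). Unlike Perp, these genes had an FPKM of 0.04 or less in both wt libraries. The 0.1 added to FPKM therefore largely sets their wt values. Closest to Pkp3 were Gna15 (0.297), Rab17 (0.323) and Il17re (0.395). Pkp2 varied least of the members but was higher in every null library than in the wt libraries. Its closest genes were Pias3 (0.032), Cers5 (0.038) and Lnx2 (0.048). Among the 10 genes themselves the smallest differences were between Pkp3 and Evpl (0.525) and between Dsp and Dsg2 (0.572), whereas Perp was no nearer than 1.00 to any other member.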

How the data were processed

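TruSeq RNA libraries were sequenced on an Illumina HiSeq. The aligner, counting program, genome build and annotation are not given in the sources used here. The authors deposited 1 table per library with an estimated count (fractional values occur) and an FPKM, from 0.01 upward, of each RefSeq transcript. Estimated counts and FPKM were summed per NCBI gene number, and the counts were rounded. Of 17923 genes, 17866 matched a symbol in the RefSeq table of GRCm38.p6.

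Null and wt libraries were compared with edgeR 4.0.16 (R 4.3.3; TMM, filterByExpr by condition, quasi-likelihood test), with Benjamini-Hochberg adjustment over 13240 genes and a threshold of 0.05. Differences on log2(FPKM + 0.1) were also compared with a two-sided exact permutation test over the 5 libraries. Intervals are exact binomial (95%). The alternatives used DESeq2 1.42.0, limma 3.58.1 with trend, other filters and pseudocounts, single libraries left out and a replicate block. DESeq2 without null replicate 1 and non-overlap without it were chosen after seeing the data. The edgeR, DESeq2 and limma fits were tested on simulated data, whose outcome is not given here and backs no call. Python 3.11.15 with scipy 1.17.1 was used for the rest.

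The members and lists were chosen with earlier results of these data known. All 10 members are named. From each list, up to 6 genes with a mean FPKM of at least 10 in either group or an unadjusted p under 0.05 could be named, and others (among them Grhl2, Esrp1, Zeb1, Zeb2, Slc5a5, Hhex, Krt5, Krt14, Pof1b, Epcam and the genes given at low levels) were chosen after their values were seen. One follicular marker is not reported here.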

Additional observations from a re-analysis of the deposited data

How the results depend on the processing

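Of 140 values of single members under alternatives, 130 kept their direction and, apart from Pkp3 with DESeq2, which has no adjusted p, their side of the threshold. The log2 fold change reversed for Pkp3 (-1.20, and -1.24 with DESeq2) and Evpl (-0.14, and -0.18 with DESeq2) without null replicate 1, and for Pkp4 (-0.52) without null replicate 2. With single libraries left out, Pkp3 ranged from -1.20 to 3.29, Pkp4 from -0.52 to 0.73 and Evpl from -0.14 to 5.47. The cause was not tested. DESeq2 called 4 members higher, and 1 without null replicate 1. The edgeR fits called 0 members with any single null library left out. With any single library of either group left out, the edgeR median of the members ranged from 0.53 to 3.88. The DESeq2 median without null replicate 1 was 0.47. Over all genes, DESeq2 called 1113 higher and 487 lower (1496 and 1098 without null replicate 1), and limma called 1 higher at each pseudocount with the FPKM filter and 5, 3 and 7 lower with 0.1, 0.01 and 1 added. In edgeR, 4 genes were lower with no filter and 1 was lower with at least 10 counts in every library. Leaving out single null libraries gave 0 in either direction. The count of promoter windows with an E2 box went from 2 to 1 in the 250 bases before the start, since the site of Dsp lies after the start.
The replicate numbers are not stated to pair samples, and same-numbered libraries had deviations with a correlation of -0.107 for both shared numbers across genes. With the replicate block, 0 genes and 0 members were called and the median of the members was 1.48. The median log2 fold change over all genes was 0.29 with TMM, 0.21 with DESeq2 size factors and 0.87 without TMM, where the median of the members was 3.83. At these depths, counts of 10 or fewer for Dsg2 and Dsc2 in the wt libraries leave their ratios imprecise.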

Other observations

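Other membrane genes of the tetraspan family of Perp differed in their order of libraries, and 1 of 5 had an unadjusted p under 0.05 in edgeR and was higher, beside 12.4% of all genes. This gene, Pmp22, passed the count filter through the null libraries only. Pmp22, a myelin and epithelial membrane protein, was at or near 0 in the wt libraries (0 and 0.02 FPKM) and had an FPKM of 8.26, 11.52 and 44.61 in null 1, 2 and 3, while Emp1 was abundant in all 5, from 262.26 to 498.25. Emp2 was highest in null 1, like Perp. The ratio of Perp to Emp2 was 0.0296 and 0.0384 in the wt and 0.603, 0.103 and 0.670 in the null libraries. Of the kinases, proteases and trafficking genes of desmosomes, 3 of 11 had an unadjusted p under 0.05 in edgeR and were higher, beside 12.4% of all genes, among them Zdhhc5, a palmitoyltransferase, with an FPKM of 5.13 and 2.75 in the wt and of 23.73, 24.31 and 12.21 in the null libraries (adjusted p = 0.199, edgeR).

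Endothelial and C cell markers were low. Endothelial markers summed to an FPKM of 0.66 or less in every library. C cell markers summed to 4.89 or less. Of the leukocyte markers with an entry, Cd68 was at 6.09 and 14.20 in the wt and at 59.81, 1.00 and 39.91 in the null libraries, while Itgam was at 0.02 or less. Cd79a was at 0.77 and 0.59 in the wt and at 0.18, 0.03 and 0.03 in the null libraries, and was the marker of this list with an unadjusted p under 0.05 in edgeR, beside 6.07% of all genes lower. Of the muscle markers, Des was at 4.24 or less.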
